A study of Marchantia polymorpha and Arabidopsis thaliana with 40 samples.

Results

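The outermost 500 kb at both ends of the 5 Arabidopsis thaliana chromosomes was examined for chromatin accessibility with and without heat, in the wild type Col-0 and in the mutant eTK, which lacks hsfa1a, hsfa1b and hsfa1d together (a triple knockout). Regions of the deposited Arabidopsis table were taken when their midpoint lay within 500 kb of an end, which gave 3564 of 110628 regions. Position alone chose them, and no measured value entered the choice. Each end is called by its chromosome and side, the top being the side from which coordinates count. The compared groups were eTK at 37 °C for 1 h, eTK at 22 °C, Col-0 at 37 °C for 1 h and Col-0 at 22 °C, with 2 libraries each. All were whole seedlings grown under continuous light to day 7, and ATAC-seq was run on 50000 flow-sorted nuclei per library, prepared from 1.5 g of tissue. The mutant was represented by 1 line, and whole seedlings mix many cell types, so fewer nuclei with a region open and a smaller opening in each nucleus cannot be told apart. The labels do not say whether the libraries of a group came from separate cultures, so p-values measure the spread between these libraries, which may be technical. The count models used below share that spread over the groups and largely over regions or windows. A very small p from 2 libraries a group rests on that sharing.

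ATAC-seq reads where the Tn5 transposase can insert adapters into DNA, so a region's count follows how open that DNA was. HSFA1 proteins are the class A heat shock transcription factors that start the plant heat response and bind heat shock elements in the promoters of chaperone genes and of further transcription factors. Plant chromosome ends carry a telomere of short repeats, followed inward by subtelomeric DNA. In Arabidopsis most ends hold genes close to the telomere, in contrast with the repeat-rich DNA around centromeres. The tops of chromosomes 2 and 4 differ from the other ends, because arrays of ribosomal RNA genes, the nucleolus organizer regions, lie between them and the telomere. No sequence or gene annotation of Arabidopsis was used here, so regions are given by chromosome, start and end as in the table, whose genome build and start convention are not given in the sources used here.

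Library totals ran from 33.2 to 35.5 M counts in eTK and from 19.6 to 38.7 M in Col-0, with a median of 180 counts per end region and library. The heated Col-0 libraries stood apart from the other 6. Their TMM scaling factors were 0.697 and 0.715, against 1.09 to 1.15 elsewhere. The 10% of regions with the highest counts held 46.7% and 45.6% of their counts, against 31.7% to 34.6% in the other libraries. Over all regions, 56.7% and 55.8% of their counts were even numbers, against 50.3% to 51.4% elsewhere. The part of these features in the heat results below was not tested.

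The ends made up 4.20% of the chromosome length and held 3.22% of the regions. They carried 71.3 regions per 100 kb, against 92.9 over all chromosomes and 78.6 in the next 500 kb inward. Regions at the ends were a little wider (median 188 against 179 bp) and had a median of 6.01 CPM (counts per M library counts, with TMM factors) against 5.40 CPM for all regions. Among the ends, the tops of chromosomes 2 and 4 had the most regions, 425 and 387, and Chr1 bottom the fewest, 310. Accessible regions reached close to the last base of the reference chromosomes: the nearest midpoint lay 158 bp from the end at Chr5 top and 258 bp at Chr3 bottom, between 1.05 and 2.97 kb at 7 ends, and 10.8 kb at Chr4 top, where no region lay in the outer 10 kb.

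The ends together took 2.94% and 3.26% of the counts in heated eTK, 3.03% and 3.15% in control eTK, 4.63% and 4.84% in heated Col-0, and 3.52% and 3.48% in control Col-0. Both heated Col-0 libraries were above all others, both control Col-0 libraries were above all eTK libraries, and the heated eTK libraries lay on either side of their controls. The mean share was 3.10 ± 0.220% in heated eTK and 3.09 ± 0.0853% in control eTK, against 4.73 ± 0.146% in heated Col-0 and 3.50 ± 0.0290% in control Col-0 (SD, n = 2 each). In an exact two-sided permutation test, p = 0.333 for heated against control Col-0, for control eTK against control Col-0 and for heated eTK against heated Col-0, the smallest p that 2 against 2 allows, and p = 1 for heated against control eTK. As a share of the counts within 5 Mb of an end, the differences kept their sign and were smaller, with log2 ratios of 0.15 against 0.43 for heat in Col-0, and of -0.10 against -0.18 for control eTK over control Col-0.

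**Figure D1:**
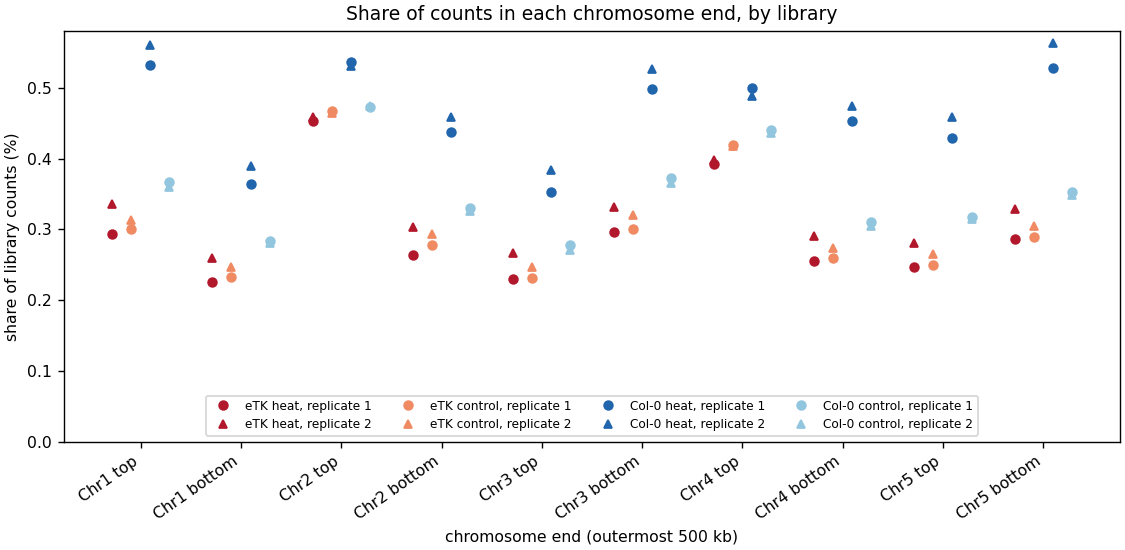
Share of each library's counts (percent, vertical axis) in each of the 10 chromosome ends, with 1 symbol per library. Heated Col-0 is highest at every end, at 0.564% in a library for Chr5 bottom, and the eTK libraries are lowest, with the smallest gaps between groups at the tops of chromosomes 2 and 4.

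With heat in Col-0, all 10 ends gained counts as a whole. Summed counts in Chr5 bottom were 7732 ± 224 CPM in heated Col-0 against 3222 ± 28.9 CPM in control Col-0, a log2 difference of 1.26 (SE 0.042, adjusted p = 3.75e-139 in edgeR's quasi-likelihood test), where a log2 of 1 is 2-fold. Chr4 bottom (1.22) and Chr1 top (1.21) followed. The smallest differences were at Chr2 top, with 7556 ± 188 CPM in heated Col-0 against 4355 ± 14.6 CPM in control Col-0 (0.80, SE 0.035), and at Chr4 top, with 7006 ± 234 against 4029 ± 33.2 CPM in the same order (0.80, SE 0.035). The other 5 ends lay between 1.04 and 1.11. Under TMM scaling such a gain was common across the genome. Of 240 windows of up to 500 kb tiled over the chromosomes, 83.3% were higher with heat in Col-0, with a median of 0.63. Shares and medians of the windows, here and below, are from TMM scaling only. Total count scaling moved the median heat change of all regions in Col-0 from -0.12 to -0.75. Chr5 bottom ranked 4 among the 240 windows, Chr4 bottom 8 and Chr1 top 9, whereas Chr4 top and Chr2 top ranked 90 and 91. The ends exceeded the next window inward at 5 of 10 ends, that window being the one with the most regions of the next 500 kb. Scaled on total counts instead of TMM, all 10 ends were still higher, by 0.17 to 0.64.

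**Figure D2:**
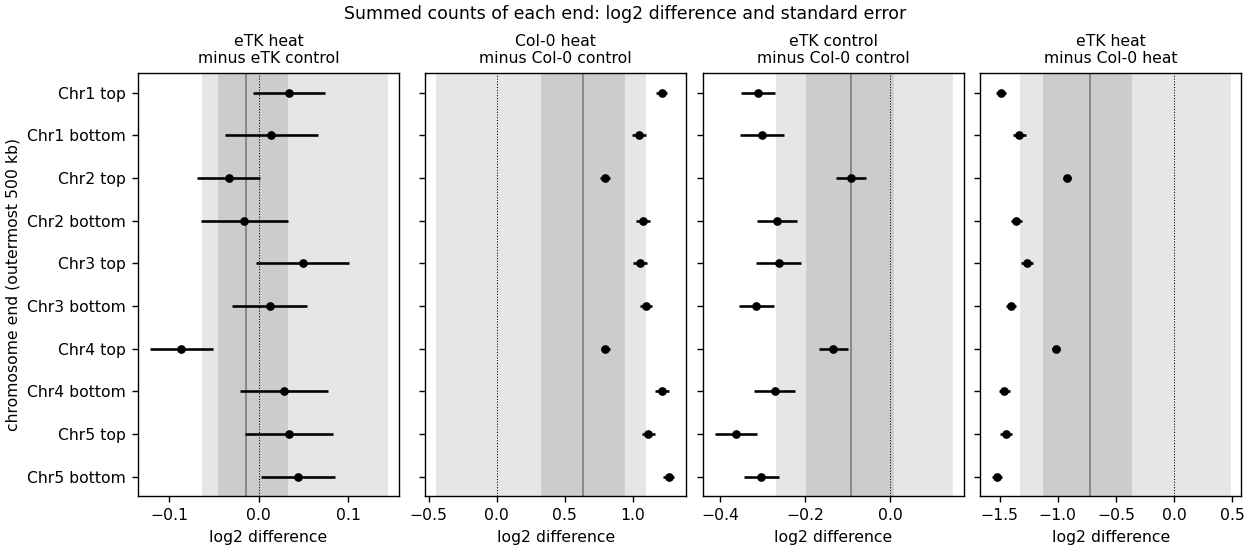
Log2 difference of the summed counts of each end (points, bars are standard errors) for the 4 comparisons named above the panels, with a different horizontal range in each. Dark and light grey mark the middle 50% and 80% of the 240 windows and the grey line their median. In heated against control Col-0 all ends lie from 0.80 to 1.26, and in heated against control eTK from -0.09 to 0.05.

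Region by region, 2069 of the 3564 end regions (58.1%) rose with heat in Col-0, against 34.4% of all regions, and 430 (12.1%) fell, against 33.1% of all regions. The median log2 change was 0.75 at the ends and -0.12 over all regions, and 1557 end regions (43.7%, against 22.6% of all regions) rose more than 2-fold, while 28 (0.786%, against 8.09%) fell more than 2-fold. The share that rose was highest at Chr5 bottom (274 of 377) and lowest at Chr4 top (158 of 387). These splits depended on the scaling. With total count scaling, which moved the median of all regions to -0.75, 1635 end regions rose and 1337 fell, and with scaling on the regions within 5 Mb of an end, which moved it to -0.57, 1774 rose and 1064 fell. The ends' median exceeded that of all regions by 0.88 under TMM, under total counts and under the 5 Mb scaling, and by 0.62 with loess offsets, a scaling that varies with the level of a region.

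In eTK no end passed the test for heat. Chr1 top had 2758 ± 245 CPM in heated eTK against 2694 ± 69.2 CPM in control eTK, and Chr4 top had 3460 ± 18.3 CPM in heated eTK against 3674 ± 27.8 CPM in control eTK. The 10 log2 differences ran from -0.09 at Chr4 top (SE 0.035) to 0.05 at Chr3 top (SE 0.052), and none passed (adjusted p from 0.116 to 0.882, edgeR), with 1 at an unadjusted p under 0.05 and none in DESeq2, whereas 10.8% of the 240 windows passed. The 2 heated eTK libraries pulled in opposite directions: without replicate 1, 9 ends passed, 8 of them higher, and without replicate 2, 3 ends passed, all lower. Without replicate 2 all 10 differences were negative, from -0.11 to -0.03, with -0.08 at Chr1 bottom. Without replicate 1 the difference for Chr2 bottom was positive (0.08).

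Among end regions in eTK, 263 (7.38%) rose with heat, against 3.98% of all regions, and 207 (5.81%) fell, against 3.95% of all regions. The median was 0.01 at the ends and 0.02 over all regions, and 13 regions rose (0.365%, against 0.104% of all regions) and 4 fell (0.112%, against 0.0316%) by more than 2-fold. The balance of rises and falls rested on single libraries: 292 end regions rose and 71 fell without heated eTK replicate 1, 49 rose and 176 fell without heated eTK replicate 2, and 85 rose and 91 fell without control eTK replicate 1. With the 5 Mb scaling 169 rose and 183 fell, and with the 4 eTK libraries alone 216 rose and 259 fell. DESeq2 called 214 higher and 75 lower, with 1131 end regions left without an adjusted p. Of the 263 that rose in eTK, 257 also rose in Col-0, which is 97.7% of the eTK list and 12.4% of the Col-0 list, whereas over all regions the 2463 shared were 56.0% and 6.48% of the lists. Of the 207 that fell in eTK, 64 also fell in Col-0, which is 30.9% and 14.9% of the lists, against 34.4% and 4.10% over all regions, and 71 of the 207 rose in Col-0. The 2 heat comparisons use separate libraries.

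The heat change of the ends was smaller in eTK than in Col-0 at all 10 ends by the interaction test. The interaction, the log2 change in eTK minus that in Col-0, ran from -1.22 at Chr5 bottom (SE 0.059, adjusted p = 4.94e-78, edgeR) to -0.83 at Chr2 top (SE 0.050, adjusted p = 3.47e-54), and 82.5% of the 240 windows were lower as well. With total count scaling the 10 values were -0.59 to -0.20, all past the threshold. That scaling moved the median interaction of all regions from 0.09 to 0.71. Of the end regions, 2042 (57.3%) had a lower heat change in eTK, against 33% of all regions, and 166 (4.66%) a higher one, against 25.7%. The split was 1396 lower and 961 higher with total count scaling, and 1619 lower and 646 higher with the 5 Mb scaling.

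The 2 genotypes differed at the ends before heat as well. At 22 °C all 10 ends were lower in eTK, with log2 differences from -0.36 at Chr5 top (2256 ± 79.8 CPM in control eTK against 2903 ± 15.6 CPM in control Col-0, adjusted p = 8.51e-12, edgeR) to -0.09 at Chr2 top (4086 ± 44.2 against 4355 ± 14.6 CPM in the same order, adjusted p = 0.0147), and 52.9% of the 240 windows were lower. The sum at Chr5 top includes regions nearly without counts in eTK, described below. By the median region Chr5 bottom was lowest (-0.31), and Chr5 top was at -0.28. The difference at Chr2 top lost its call with total count scaling (-0.02), in the outer 250 kb alone (-0.07) and without any 1 of the 4 control libraries (-0.10 to -0.08), and was positive with the 5 Mb scaling (0.02), where that at Chr4 top also lost its call (-0.02). The difference was more negative at the end than in the next window inward at 10 of 10 ends, by -0.14 at Chr2 top to -0.006 at Chr3 top. At Chr2 bottom, Chr3 top, Chr3 bottom and Chr5 bottom this gap was smaller than the SE of the end's own difference. The gaps were not tested. The ratio of counts in the ends to those in the next 500 kb, which no scaling alters, was -0.15 and -0.13 on the log2 scale in control eTK against -0.08 and -0.09 in control Col-0. The 2 groups did not overlap (exact permutation p = 0.333, the smallest possible), and both eTK libraries were below both Col-0 libraries at 7 single ends.

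Among end regions at 22 °C, 1113 (31.2%) were lower in eTK, against 13.4% of all regions, and 29 (0.814%) were higher, against 6.6%. The median difference was -0.22 at the ends and 0.01 over all regions. It shrank with distance from the end: -0.31 in the outer 50 kb, -0.19 between 450 and 500 kb, -0.15 between 0.5 and 1 Mb, -0.10 between 1 and 2 Mb, -0.08 between 2 and 5 Mb, and 0.06 farther in. With the 5 Mb scaling 571 end regions were lower and 55 higher. The heat change in Col-0 had no such slope within the ends, with medians of 0.72 in the outer 50 kb and 0.74 between 450 and 500 kb, and declined farther in, to 0.56 between 0.5 and 1 Mb, 0.27 between 1 and 2 Mb, 0.06 between 2 and 5 Mb and -0.25 beyond.

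After heat the 2 genotypes were farthest apart. All 10 ends were lower in heated eTK than in heated Col-0, from -1.52 at Chr5 bottom (2692 ± 242 CPM in heated eTK against 7732 ± 224 CPM in heated Col-0) to -0.92 at Chr2 top (3993 ± 2.3 against 7556 ± 188 CPM in the same order), and 82.1% of the 240 windows were lower. Of the end regions, 2363 (66.3%) were lower, against 37.9% of all regions, and 289 (8.11%) higher, against 37.3%. With total count scaling 1816 were lower and 1102 higher. With the 5 Mb scaling the split was 1927 and 903.

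The tops of chromosomes 2 and 4 differed from the other 8 ends in the same direction in most measures. The median region there rose by 0.34 and 0.10 with heat in Col-0, against 0.47 to 1.17 at the other ends, although the summed counts rose by 0.80 at both. Regions of high level made up more of these ends, with 15.1% and 16.3% of their regions in the top 10% of the table by CPM, against 13.2% at the other 8 ends. In that top 10% the median heat change in Col-0 was 0.98 at Chr2 top and 1.12 at Chr4 top, against 1.47 at the other 8 ends. In the lowest 10% it was -0.20 and -0.13, against 0.13. The level is the mean CPM over all libraries, heated Col-0 included. A rise with heat in Col-0 itself lifts a region's level, so differences between levels can partly follow from the sorting. In eTK more regions fell than rose with heat at these 2 ends. At Chr2 top 28 (6.59%) fell and 11 (2.59%) rose, and at Chr4 top 33 (8.53%) fell and 5 (1.29%) rose. At the other 8 ends 247 (8.98%) rose and 146 (5.31%) fell, and over all regions 3.98% rose and 3.95% fell. At the 2 tops falls outnumbered rises under every alternative run, but at the other 8 ends 45 rose and 143 fell without heated eTK replicate 2, and 283 rose and 40 fell without heated eTK replicate 1. At 22 °C the median difference of eTK from Col-0 was -0.06 and -0.07 at the 2 tops, against -0.27 at the other 8 ends. None of these contrasts between ends was tested, since ends are not replicates.

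**Figure D3:**
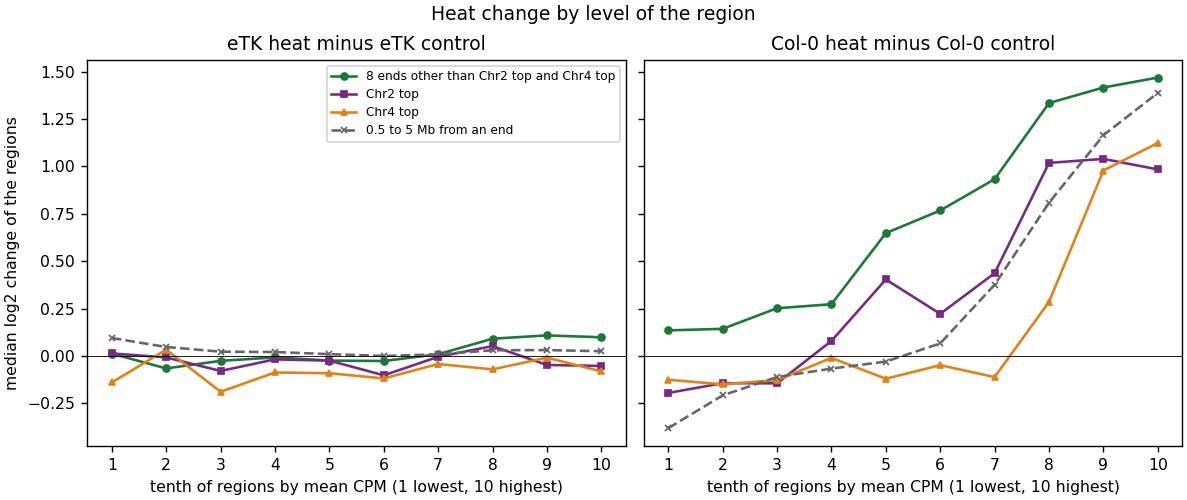
Median log2 heat change of regions (vertical axis) in each 10% of the table by mean CPM (horizontal axis, 1 lowest), in eTK and in Col-0. In Col-0 the change climbs with level from 0.13 to 1.47 at 8 ends and from -0.38 to 1.39 between 0.5 and 5 Mb from an end. In eTK all the medians lie close to 0. Mean CPM is taken over all libraries, heated Col-0 included, so part of the climb in Col-0 can follow from the sorting.

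Under TMM scaling the gain with heat in Col-0 was spread along the ends. In all 100 bins of 50 kb the summed counts were higher in heated than in control Col-0, with log2 ratios from 0.27 to 1.54. Other scalings were not run on the bins, and bins outside the ends were not compared. Total count scaling lowered the Col-0 changes of the whole ends to 0.17 to 0.64, so the lowest bins need not stay above 0 under it. In eTK the ratios of the same bins ran from -0.15 to 0.24, with 64 above 0 and 36 below. The outer 50 kb of Chr2 top was the lowest bin in Col-0, at 0.27, and had 0.24 in eTK, near the highest eTK value, that of the outer 50 kb of Chr1 bottom. Its 14 regions include 7 in the outer 10 kb, next to the ribosomal RNA gene side. One of these, on chromosome 2 from 9525 to 10375, ranked 18 of all regions in the table by CPM per region. It had 154 CPM in both heated eTK libraries and 104 and 124 CPM in control eTK, against 131 and 147 CPM in heated Col-0 and 126 and 136 CPM in control Col-0. Heated eTK lay above control eTK without overlap, and the Col-0 groups overlapped. The change was 0.43 in eTK (SE 0.062, adjusted p = 3.66e-07, edgeR) and 0.09 in Col-0 (SE 0.064, adjusted p = 0.210), the Col-0 value being negative with total count scaling, loess offsets and the 5 Mb scaling. The region on chromosome 2 from 5554 to 5842, chosen after its values were seen, was higher in eTK at 22 °C, with 106 and 111 CPM in control eTK against 64.7 and 72.9 CPM in control Col-0 (log2 0.66).

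**Figure D4:**
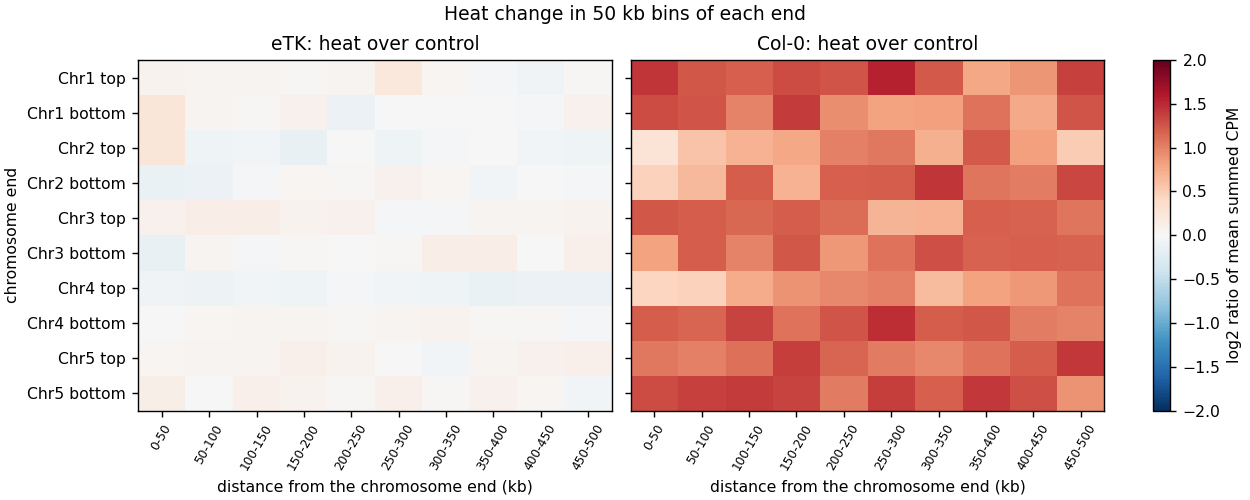
Log2 ratio of mean summed CPM, heat over control, in 50 kb bins of each end (colour, horizontal axis is the distance from the chromosome end), for eTK and for Col-0. Under TMM scaling, the only one run on the bins, the Col-0 panel is above 0 in all 100 bins. It is palest in the outer bins of Chr2 top and Chr4 top (0.27 and 0.43), and the eTK panel stays between -0.15 and 0.24.

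The largest gains with heat in Col-0 lay in a short stretch of Chr1 bottom. The region on chromosome 1 from 30062566 to 30062833 had 4.10 and 4.96 CPM in heated eTK and 3.21 and 3.13 CPM in control eTK, against 46.3 and 51.4 CPM in heated Col-0 and 4.30 and 3.57 CPM in control Col-0. Only the heated Col-0 libraries were high. The change was 3.63 in Col-0 (SE 0.12, adjusted p = 6.81e-51, edgeR) and 0.52 in eTK (SE 0.14, adjusted p = 0.0131), with an interaction of -3.11. The region from 30058257 to 30059570 had 11.0 and 14.0 CPM in heated eTK and 10.5 and 13.4 CPM in control eTK, against 138 and 128 CPM in heated Col-0 and 12.0 and 11.9 CPM in control Col-0, and its interaction of -3.40 (SE 0.13) was the lowest at the ends among regions with a mean of at least 50 counts. Of the 7 regions between 30057649 and 30069631, 6 had a log2 change in Col-0 from 1.87 to 3.63, and the first, from 30057649 to 30057753, had 0.46. Another region of Chr1 bottom, from 30026947 to 30027074, rose in both genotypes, with 2.41 and 2.82 CPM in heated eTK and 1.29 and 1.28 CPM in control eTK, against 12.2 and 10.1 CPM in heated Col-0 and 1.57 and 1.22 CPM in control Col-0. Its change was 1.02 in eTK and 2.98 in Col-0, and the interaction was -1.96.

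At Chr5, the region from 289545 to 289745 had 1.09 and 1.37 CPM in heated eTK and 0.75 and 0.76 CPM in control eTK, against 13.6 and 12.9 CPM in heated Col-0 and 1.57 and 1.68 CPM in control Col-0. It rose by 3.03 in Col-0 and was already lower in eTK at 22 °C (-1.10, adjusted p = 0.00123, edgeR). The region from 26713187 to 26713290 had an interaction of -2.92, with 1.24 and 1.13 CPM in heated eTK and 1.53 and 0.86 CPM in control eTK, against 8.57 and 9.10 CPM in heated Col-0 and 1.62 and 0.70 CPM in control Col-0. In both regions the heated Col-0 libraries stood alone, but a mean of at least 50 counts was reached only through these libraries. Their standing alone is thus partly a result of that filter. A run of neighbours at Chr2 bottom, noticed after the values were seen, showed the same: all 9 regions between 19364610 and 19371438 had changes from 0.90 to 2.19 in Col-0 and from -0.62 to 0.34 in eTK. The region from 19369907 to 19370738 among them had 25.7 and 27.7 CPM in heated eTK and 26.7 and 28.3 CPM in control eTK, against 162 and 151 CPM in heated Col-0 and 40.0 and 38.7 CPM in control Col-0.

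The regions that fell most with heat in Col-0 were narrow and of low level, and 3 of the 4 lay at Chr2 top. The region on chromosome 2 from 63650 to 63724 had 3.57 and 3.68 CPM in heated eTK and 2.56 and 2.61 CPM in control eTK, against 0.29 and 1.00 CPM in heated Col-0 and 1.85 and 2.57 CPM in control Col-0. Its change was -1.70 in Col-0 and 0.49 in eTK (adjusted p = 0.157, edgeR), and its interaction of 2.19 was the highest at the ends among regions with a mean of at least 50 counts. The regions from 12457 to 12532 and from 325754 to 325821 fell by 1.71 and 1.49 in Col-0, and their interactions were 1.96 and 2.02. The region on chromosome 1 from 30183812 to 30183929 fell by 1.60, with 1.17 and 1.13 CPM in heated Col-0 against 3.45 and 3.52 CPM in control Col-0.

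The 3 largest gains with heat in eTK were all on chromosome 5 and were larger in Col-0. The region from 76308 to 76526 had 2.22 and 3.46 CPM in heated eTK and 1.09 and 1.20 CPM in control eTK, against 8.50 and 10.2 CPM in heated Col-0 and 2.23 and 2.27 CPM in control Col-0. It rose by 1.32 in eTK (SE 0.23, adjusted p = 4.01e-05, edgeR) and by 2.05 in Col-0. The regions from 26699408 to 26699531 and from 26807897 to 26807963 both rose by 1.23 in eTK, and by 2.88 and 2.31 in Col-0. The region from 26699408 to 26699531 reached a mean of at least 50 counts only through the heated Col-0 libraries. The 3 largest losses in eTK did not pass as losses in Col-0. The region on chromosome 1 from 30092370 to 30092455 fell by 1.12 in eTK, with 0.79 and 1.05 CPM in heated against 2.07 and 1.98 CPM in control eTK, and rose by 1.22 in Col-0, with 3.96 and 4.64 CPM in heated against 1.76 and 1.95 CPM in control Col-0. Another loss, at Chr3 bottom (23272925 to 23273082), was by 1.06 in eTK, beside -0.04 in Col-0 (adjusted p = 0.880, edgeR). At Chr5 top the region starting at 306273 and ending at 306418 fell by 1.05 in eTK, beside 0.07 in Col-0 (adjusted p = 0.666, edgeR). The Col-0 value of this last region was negative and passed with total count scaling (-0.56) and with the 5 Mb scaling (-0.38).

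The last stretch of Chr1 bottom was without counts in eTK. All 8 regions from 30418494 to 30425199, which are 8 of the 9 regions in the outer 10 kb, had 0 counts in each of the 4 eTK libraries, whereas together they held 793 and 955 counts in heated Col-0 and 1418 and 1196 counts in control Col-0. With a floor of 3 counts over the group, their sum was at least 849-fold lower in control eTK than in control Col-0 and at least 1547-fold lower in heated eTK than in heated Col-0, bounds that cover counting error only. The labels do not give the genetic background of the eTK alleles, so DNA closed in eTK and DNA missing there or differing from the reference cannot be told apart from a count of 0. The ninth region, from 30418055 to 30418157, had 14 and 18 counts in heated eTK and 30 and 26 counts in control eTK, against 34 and 61 counts in heated Col-0 and 117 and 103 counts in control Col-0. The next region inward, from 30415035 to 30415318, had 5.77 and 4.77 CPM in control eTK against 6.87 and 6.79 CPM in control Col-0. In heated Col-0 the 8 regions summed to 59.0 ± 1.30 CPM, against 33.0 ± 0.943 CPM in control Col-0. Regions with 0 counts in all eTK libraries were otherwise few at the ends, 13 in all (0.365%, against 0.724% of the table). Another 4 lay at Chr3 bottom among 15 regions from 23095707 to 23124487, and 1 at Chr5 top from 250888 to 250974.

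**Figure D5:**
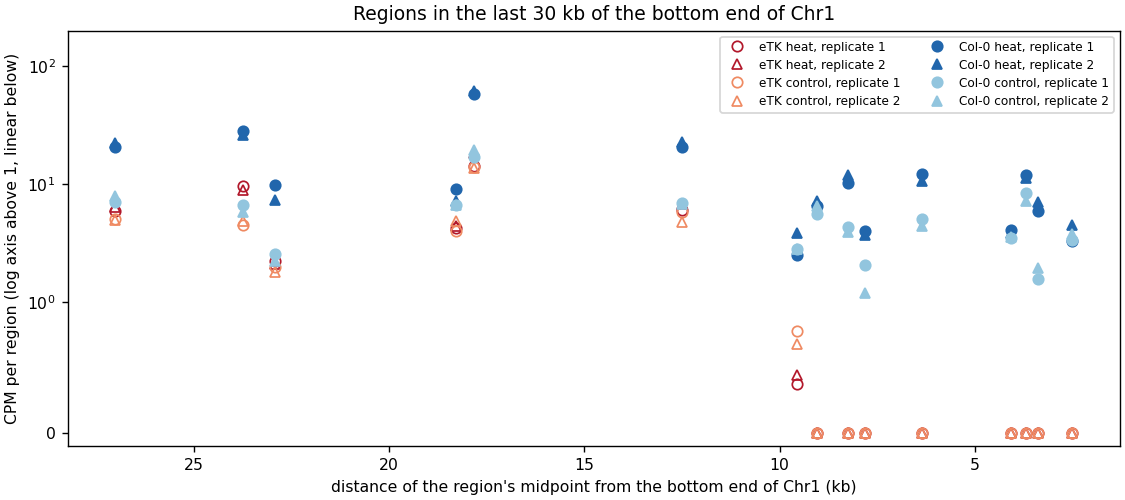
CPM of each region in the last 30 kb of Chr1 bottom (vertical axis, logarithmic above 1 and linear below) against the distance of its midpoint from the end, with open symbols for eTK and filled symbols for Col-0. From 9.04 kb outward all eTK symbols are at 0, while the Col-0 symbols lie between 1.19 and 12.2 CPM.

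Other end regions were far lower in eTK too. In total 72 end regions (2.02%, against 2.87% of all regions) were more than 2-fold lower in control eTK than in control Col-0, 17 each at Chr1 bottom and Chr5 top, and 59 of them had counts in eTK. The 72 formed 22 pairs of neighbours that were both more than 2-fold lower. The following regions were chosen after their values were seen. At Chr5 top, the region from 140392 to 141989 had 2.70 and 2.94 CPM in heated eTK and 2.49 and 2.16 CPM in control eTK, against 121 and 130 CPM in heated Col-0 and 50.5 and 51.0 CPM in control Col-0. Its log2 difference, control eTK minus control Col-0, was -4.45 (SE 0.10), while the next region, from 142704 to 142993, differed by -0.47. Within 10 kb lay another 3 regions more than 2-fold lower, starting at 145451 (-1.71), 147088 (-1.40) and 150333 (-1.14). Farther in, the region from 494484 to 495136 had 0.05 and 0.15 CPM in heated eTK and 0.10 and 0.21 CPM in control eTK, against 43.8 and 42.6 CPM in heated Col-0 and 15.4 and 15.3 CPM in control Col-0.

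At Chr4 top, 5 adjacent regions from 51070 to 53750 were lower in eTK. The region from 51496 to 51675 had 0.13 CPM in both control eTK libraries, against 4.16 and 4.68 CPM in control Col-0. The region from 53447 to 53750 had 4.66 and 4.96 CPM in heated eTK and 4.87 and 2.92 CPM in control eTK, against 43.5 and 34.1 CPM in heated Col-0 and 14.8 and 15.1 CPM in control Col-0. The neighbour from 50630 to 50723 differed by -0.49 (adjusted p = 0.221, edgeR).

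Gains in eTK at 22 °C were rarer, with 12 end regions more than 2-fold higher (0.337%, against 0.362% of all regions). All 3 regions at Chr5 bottom between 26685164 and 26685884 were among them. The region from 26685376 to 26685516 had 5.32 and 5.62 CPM in heated eTK and 3.96 and 5.16 CPM in control eTK, against 1.17 and 1.44 CPM in heated Col-0 and 1.19 and 1.11 CPM in control Col-0. Its difference at 22 °C was 1.98 (SE 0.21, adjusted p = 7.29e-14, edgeR), and those of its neighbours were 1.48 and 1.80. All eTK libraries were above all Col-0 libraries, and heat changed none of the 3 past the threshold in either genotype. The 3 regions reached a mean of at least 50 counts only through the eTK libraries. At Chr3 bottom, the region from 23110258 to 23110371 showed the same, with 4.13 and 4.83 CPM in heated eTK and 3.21 and 3.49 CPM in control eTK, against 1.03 and 1.51 CPM in heated Col-0 and 1.07 and 0.97 CPM in control Col-0 (1.71 at 22 °C). It lies within the same stretch of Chr3 bottom as the 4 regions without counts in eTK.

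The region nearest each end followed its end as a whole at some ends and not at others. Of these 10 regions, 5 rose and none fell with heat in Col-0. Among all end regions 58.1% rose and 12.1% fell, and genome-wide 34.4% of regions rose and 33.1% fell. With so few regions, the count cannot show whether the outermost regions differ from the other end regions. The log2 changes of the 10 ran from -0.48 at Chr3 top to 1.07 at Chr5 bottom. At Chr5 bottom, the region from 26972295 to 26972769 had 12.0 and 14.1 CPM in heated eTK and 12.5 and 13.3 CPM in control eTK, against 35.6 and 37.7 CPM in heated Col-0 and 17.1 and 17.9 CPM in control Col-0. At Chr2 bottom, the region from 19696460 to 19697037 had 11.8 and 14.9 CPM in heated eTK and 14.5 and 16.4 CPM in control eTK, against 39.2 and 40.0 CPM in heated Col-0 and 18.9 and 20.2 CPM in control Col-0. In both, the heated Col-0 libraries were above all others. The region only 158 bp from the end of Chr5 top, from 102 to 214, behaved otherwise: it fell in eTK by 0.86 (adjusted p = 0.0103, edgeR), with 1.85 and 1.20 CPM in heated against 3.18 and 2.35 CPM in control eTK, and had 2.93 and 3.14 CPM in heated against 3.52 and 3.41 CPM in control Col-0 (-0.19, adjusted p = 0.496). At Chr2 top the region from 1014 to 1082 rose in both genotypes, by 0.35 in eTK and 0.34 in Col-0, the Col-0 value being negative with total count scaling, loess offsets and the 5 Mb scaling. At Chr4 top the region from 10575 to 11024 rose in Col-0 by 0.38, which was negative under the same 3 scalings.

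The regions with the most counts at each end followed the summed counts, of which they are a part. They were 618 to 1989 bp wide and lay 9.95 to 387 kb from the end. Of the 10, 9 rose with heat in Col-0, by 0.58 to 1.99, against 34.4% of all regions. But 3 of these, at Chr2 bottom, Chr4 top and Chr5 top, had negative values with loess offsets. The 10 were picked by mean CPM over all libraries, heated Col-0 included, which favours regions that rose there. End regions in the top 10% of the table by CPM had a median change of 1.39 in Col-0, so the 9 rises follow their level. At Chr3 top, the region from 386658 to 387715 had 36.1 and 39.4 CPM in heated eTK and 34.3 and 33.6 CPM in control eTK, against 174 and 161 CPM in heated Col-0 and 42.7 and 41.5 CPM in control Col-0 (1.99 in Col-0, 0.16 in eTK with adjusted p = 0.157, edgeR). At Chr1 top, the region from 206621 to 207239 had 57.1 and 54.9 CPM in heated eTK and 57.2 CPM in both control eTK libraries, against 214 and 190 CPM in heated Col-0 and 74.1 and 73.2 CPM in control Col-0. At Chr4 top, the region from 161521 to 162786 had 81.4 and 77.2 CPM in heated eTK and 84.0 and 83.8 CPM in control eTK, against 226 and 207 CPM in heated Col-0 and 101 and 97.5 CPM in control Col-0. Only the heated Col-0 libraries stood high in these 3 regions. Chr2 top was the exception, where the region from 9525 to 10375 described above rose in eTK and had an interaction of 0.34. The other 9 interactions were negative with TMM scaling, but with loess offsets 4 of them were positive, 0.14 at Chr1 bottom, 0.042 at Chr2 bottom, 0.21 at Chr4 top and 0.38 at Chr5 top.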

How the data were processed

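The deposited values are counts, raw reads per accessible region in 1 Arabidopsis table, without normalization per the file headers. Per the submitters' processing notes the tools were Bowtie2 2.4.4, MACS2 2.2.7.1, featureCounts, Subread 2.0.6, fastp 0.24.0, SAMtools, bedtools, deepTools and FastQC 0.11.9, with no role or order. Genome build, read filters, treatment of duplicates and pooling of peaks are not given in the sources used here. Duplicate reads kept or removed, and peaks called on pooled or single libraries, could alter levels at repetitive ends. The 32 Marchantia libraries of the series were not used here.

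Each of the 8 columns was matched to a sample by the labels. Counts were fitted with edgeR 4.0.16 in R 4.3.3 (limma 3.58.1), with 1 mean per group, TMM scaling and the quasi-likelihood F test. Two-sided p-values were corrected with the Benjamini-Hochberg method across the whole table of 110628 regions, and 0.05 was the threshold. The low-count filter removed 0 regions, so all 3564 end regions were tested. Summed counts were fitted likewise over 240 windows of 500 kb, or less where a window met that of a bottom end, with the scaling of the region fit. SE is the absolute log2 value over the square root of F, and CPM are given as mean ± SD. Precision follows the counts, a median of 180 per end region and library. Both fits were run on simulated counts in which a small part of the regions or windows changed. Such counts do not check the scaling where most regions change, as with heat in Col-0 (67.5% of all regions called).

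Members, lists and alternatives were chosen with earlier results of these data known. Regions named had a mean of at least 50 counts and passed the threshold: the 4 highest and 4 lowest for heat in Col-0, 3 each way for heat in eTK, the interaction and eTK at 22 °C, and 2 each way for heated eTK against heated Col-0, plus the region nearest each end and that with the highest CPM. Others are marked as chosen after their values were seen. Replicate numbers were not treated as pairs. Deviations from group means correlated over 0.1 in 0 of 6 pairs of groups over all regions and in 1 of 6 over the end regions. The highest value was 0.102, for heated eTK and heated Col-0 over the end regions. With so few libraries a group, these values cannot exclude pairing. Alternatives were DESeq2 1.42.0, other scalings, a mean of at least 50 counts, a replicate block, the compared libraries only, ends of 250 kb, ends without the outermost 20 kb, and each library left out.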

Additional observations from a re-analysis of the deposited data

Results flagged for a closer look

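The heat response differed between eTK and Col-0, by the interaction test of the edgeR fit, at every end and at 28 of the 41 regions chosen by the naming rule. That rule took regions partly for their interaction or heat change, so the 28 are no independent result. Of all regions 58.7% passed the interaction test, and of the 240 windows 198 were lower and 31 higher. Summed over the end, the interaction (change in eTK minus change in Col-0) was -1.18 at Chr1 top, -1.03 at Chr1 bottom, -0.83 at Chr2 top, -1.09 at Chr2 bottom, -1.0 at Chr3 top, -1.09 at Chr3 bottom, -0.88 at Chr4 top, -1.19 at Chr4 bottom, -1.08 at Chr5 top and -1.22 at Chr5 bottom.

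On chromosome 1 the interaction was -0.84 from 2424 to 2509, -1.48 from 206621 to 207239, -1.96 from 30026947 to 30027074, -3.40 from 30058257 to 30059570, -3.11 from 30062566 to 30062833, -2.34 from 30092370 to 30092455, 1.64 from 30183812 to 30183929 and -1.06 from 30241979 to 30242887. On chromosome 2 it was 0.34 from 9525 to 10375, 1.96 from 12457 to 12532, 2.19 from 63650 to 63724, 2.02 from 325754 to 325821, -1.29 from 19594004 to 19595765 and -1.22 from 19696460 to 19697037. On chromosome 3 it was -1.84 from 386658 to 387715, -1.02 from 23272925 to 23273082 and -1.41 from 23300498 to 23302487. On chromosome 4 it was -1.21 from 161521 to 162786 and -1.57 from 18471943 to 18472629.

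On chromosome 5 the interaction was -0.74 from 76308 to 76526, -2.32 from 289545 to 289745, -1.12 from 306273 to 306418, -0.78 from 321705 to 322972, -1.65 from 26699408 to 26699531, -2.92 from 26713187 to 26713290, -1.08 from 26807897 to 26807963, -1.40 from 26842121 to 26843759 and -1.05 from 26972295 to 26972769. The positive values belong to regions that fell in heated Col-0, apart from the one on chromosome 2 from 9525 to 10375.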

How the results depend on the processing

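All 10 ends stayed past the threshold, in the same direction, for heat in Col-0, the interaction and heated eTK under every alternative run on the ends. Loess offsets were fitted to single regions only. The summed ends had a single median factor per library in their place, so a scaling that varies with level was not tried on them. The count of end regions called for heat in eTK was 470, and 289 with DESeq2 and 176 to 606 with 1 library left out. For eTK at 22 °C it was 1142, and 626 with the 5 Mb scaling and 656 to 1231 with 1 library left out. The count of ends called for heat in eTK, 0, was 1 with total count scaling, 1 with the replicate block (507 regions), and 0 to 9 with 1 library left out. Replicate numbers were otherwise not treated as pairs, and the block changed no other count by 1.5 times. As a share of counts within 5 Mb of an end, the log2 ratios were 0.15 for heat in Col-0, -0.10 for eTK at 22 °C and -0.26 for heated eTK, against 0.43, -0.18 and -0.61.

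Where signs were compared, they turned for 3 single ends. These were Chr1 bottom for heat in eTK (-0.084 without heated eTK replicate 2 and 0.105 without heated eTK replicate 1), Chr2 bottom for heat in eTK (0.076 without heated eTK replicate 1 and -0.114 without heated eTK replicate 2) and Chr2 top for eTK at 22 °C (0.018 with the 5 Mb scaling). Without heated eTK replicate 2 all 10 ends were negative for heat in eTK, from -0.114 to -0.034. For heat in Col-0, total count scaling gave -0.56 at chromosome 5 from 306273, -0.048 and -0.43 at chromosome 1 from 30423879 and 30418494, -0.29 and -0.53 at chromosome 2 from 1014 and 9525, -0.24 and -0.56 at chromosome 4 from 10575 and 18583577, and -0.042 at chromosome 5 from 321705. Loess offsets gave -0.0032, -1.30 and -0.10 at chromosome 2 from 1014, 9525 and 19594004, -0.31 and -0.21 at chromosome 4 from 10575 and 161521, and -0.53 at chromosome 5 from 321705. The 5 Mb scaling gave -0.38 at chromosome 5 from 306273, -0.11 and -0.35 at chromosome 2 from 1014 and 9525, and -0.065 at chromosome 4 from 10575. For the interaction, total count scaling gave 0.41 at chromosome 3 from 23459387 and 0.41 at chromosome 4 from 10575, and loess offsets gave 0.14 at chromosome 1 from 30241979, 0.042 at chromosome 2 from 19594004, 0.51 and 0.21 at chromosome 4 from 10575 and 161521, and 0.38 at chromosome 5 from 321705. The cause was not tested. Where neither value passed its threshold, signs were not compared. With 2 libraries a group, leaving 1 out assumes that the lone library varies like the other groups.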
